A study of Mus musculus with 10 samples.

Results

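The genes of MHC class II antigen presentation were followed in hippocampal microglia, the resident macrophages of brain tissue. The set was defined by gene name and held 7 of the 545 endogenous genes of an nCounter mouse immune panel: the chain genes H2-Aa, H2-Ab1 and H2-Eb1, the loading genes H2-DMa and H2-Ob, the invariant chain gene Cd74 and the transactivator gene Ciita. The panel counts fluorescent barcodes on probes bound to their target, here amplified cDNA. Microglia were collected at postnatal day 14 from male Balbc mice, in 5 control pups (numbered 1, 18, 40, 52 and 69) and 5 pups given brief daily separation, abbreviated BDS (numbered 11, 17, 24, 38 and 59). BDS pups were taken from the mother for 15 min daily, a schedule that ran from postnatal day 1 to 21. At collection they were therefore still within it. No litter gave more than 1 pup, and every pup filled 1 lane of the instrument. The labels do not say how control pups were handled.

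MHC class II molecules are pairs of an alpha and a beta chain that carry peptides from the endosome to the surface of antigen-presenting cells, where CD4+ T cells read them. New pairs are held by the invariant chain CD74 until the protease cathepsin S trims it. The H2-DM molecule then exchanges the remaining fragment for a peptide, and H2-DO restrains H2-DM. CIITA is the transactivator that turns on the chain genes, the invariant chain gene and the H2-DM genes together, most strongly after interferon-gamma. Resting microglia of a healthy brain are known for low class II levels. Balb/c mice carry the d haplotype of these polymorphic chain genes, whereas the reference annotation, matched by accession for all 7 members, is of C57BL/6J.

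CIITA acts through a shared promoter module of an X box, bound by RFX, and a Y box, bound by NF-Y. The module is shown because members that carry its letters differed in the number of lanes in which they were detected. RefSeq promoter windows (build GRCm38.p6) matched 4 of the 7 members. Both strands of the 250 bases before each start were searched for CTNGCAAC, the core of the X box, and TGATTGG, the core of the Y box, which do not overlap. Both were found in 3 members, as follows, in lower case with the matches to the X-box and then the Y-box core in capitals.
H2-Aa: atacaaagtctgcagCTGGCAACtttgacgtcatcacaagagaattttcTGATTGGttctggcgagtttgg
H2-Eb1: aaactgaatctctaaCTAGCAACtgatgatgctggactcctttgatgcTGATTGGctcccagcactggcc
H2-Ob: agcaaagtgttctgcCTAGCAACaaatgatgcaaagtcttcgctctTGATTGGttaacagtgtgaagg
The H2-Aa stretch is chr17:34287852-34287922 on the minus strand. That of H2-Eb1 is chr17:34305758-34305827 and that of H2-Ob chr17:34238800-34238867, both on the plus strand. The X-box core began 84, 94 and 90 bases before the start of H2-Aa, H2-Eb1 and H2-Ob, and 26, 25 and 23 bases separated it from the Y-box core. Among all 32851 promoter windows of this length, 2.84% held the X-box core, 7.23% the Y-box core and 0.244% both. Neither was found in the windows of H2-DMa. These letters were chosen with the sequences in view, and a match describes the sequence only.

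Endogenous counts per lane ran from 76237 in control 52 to 968930 in BDS 17, averaging 371619 ± 281958 among controls and 716937 ± 245521 under BDS (SD, n = 5 each; exact two-sided permutation p = 0.0794). Background did not follow this difference: the negative control probes averaged 10 raw counts among controls and 10.03 under BDS. A gene was taken as detected in a lane when its raw count exceeded the mean plus 2 SD of that lane's 8 negative controls, a limit between 13.9 and 26.3 raw counts. Genes detected in at least 4 of the 10 lanes were tested, which kept 283 of 545 (51.9%). To normalize, each raw count was divided by its lane's scale factor, taken from 6 housekeeping genes. In a lane with few counts this division enlarges background as well as signal, and the limit corresponded to 124 normalized counts in control 52 and 7.68 in BDS 17. All 12 microglia markers on the panel, among them Csf1r, Cx3cr1 and Trem2, were tested genes. In the edgeR comparison of BDS with control given below, 3 of them were higher and 3 lower at an unadjusted p under 0.05. Of all tested genes, 19.4% were higher and 8.83% lower at that p. The log2 fold changes were 0.76 for C1qa, 0.48 for Ctss and 0.50 for Fcgr1. They were -0.63 for Cx3cr1, -0.56 for Itgam and -0.45 for Cd81, and 0 of the 12 had an edgeR adjusted p under 0.05. In sorted bulk cells, fewer cells that express a gene and less of its RNA in each cell cannot be told apart.

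Class II genes fell into 3 levels of detection. H2-Ab1, H2-DMa and H2-Ob exceeded the limit in all 10 lanes, as did 36.1% of the panel. Cd74 exceeded it in 6 lanes, and Ciita, H2-Eb1 and H2-Aa in 2, 1 and 1. Thus 4 of the 7 members were tested and 3 stayed out.

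**Figure D1:**
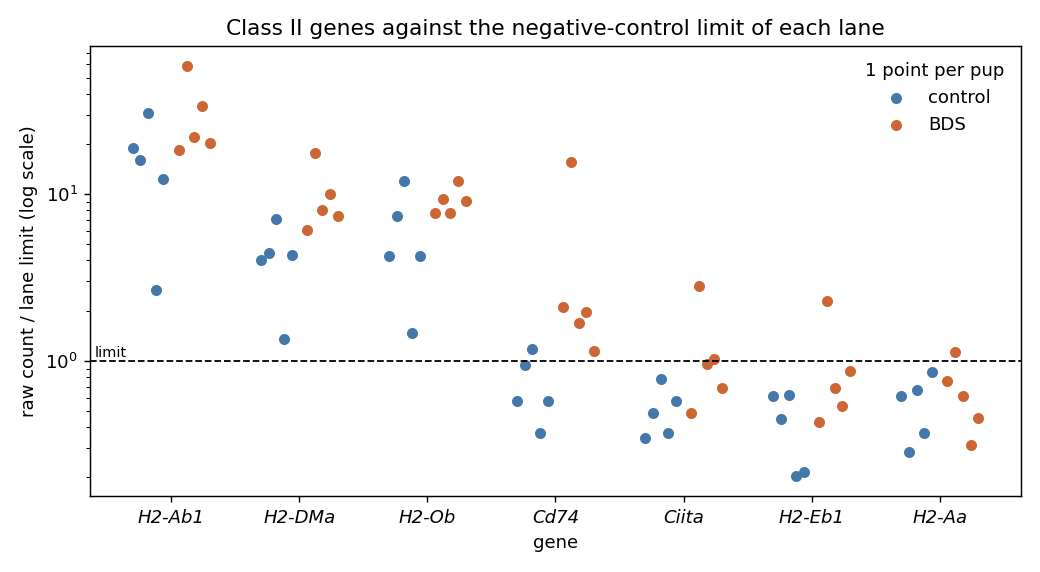
Raw count of each class II gene divided by the negative-control limit of its own lane (log scale), with 1 point for each of the 10 pups and the dashed line at the limit. H2-Ab1, H2-DMa and H2-Ob lie above the line in every lane, Cd74 lies above it in 1 control and 5 BDS lanes, and most points of Ciita, H2-Eb1 and H2-Aa lie below it.

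The beta chain gene H2-Ab1 and its alpha chain partner H2-Aa, which together form the I-A molecule, differed in detection. H2-Ab1 gave 492, 394, 781, 65 and 171 raw counts in control pups 1, 18, 40, 52 and 69. In BDS pups 11, 17, 24, 38 and 59 it gave 341, 974, 576, 754 and 534. These counts followed the depth of the lanes, and the lowest stood in the shallowest lane. H2-Aa gave 16, 7, 17, 9 and 12 raw counts in the same control pups and 14, 19, 16, 7 and 12 in the BDS pups. Its counts stayed under the limit in every lane but BDS 17, where 19 raw counts stood against a limit of 16.7. Probes bind with different efficiency, so the counts of H2-Aa and H2-Ab1 do not give a ratio of the 2 transcripts. H2-Eb1, the beta chain gene of the I-E molecule, gave 3 to 16 raw counts in control lanes, all under the limit. In BDS pups 11, 17, 24, 38 and 59 it gave 8, 38, 18, 12 and 23, and BDS 17 alone exceeded its limit.

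H2-Aa is therefore a case where scaling sets the value. In the authors' deposited table its normalized scores were 76 in control 52, 50 in control 69 and 30 in control 1, where raw counts were 9, 12 and 16 and lay under the limit. That table lists H2-Aa as above background in 40% of samples and gives it a BDS-to-control fold change of 0.35 with p = 0.1100, the authors' value, for which no adjustment is stated. Counted against each lane's own negative controls, H2-Aa was detected in 1 of 10 lanes, so no fold change is given for it here. The authors' deposited table lists H2-Eb1 and Ciita as above background in 30% of samples each and Cd74 in 90%.

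In the comparison of BDS with control pups, H2-Ab1 averaged 438 ± 112 normalized counts among controls and 392 ± 42.3 under BDS (SD, n = 5 each). Control values were 615, 355, 425, 331 and 464 in pups 1, 18, 40, 52 and 69, and BDS values 412, 448, 333, 390.5 and 379 in pups 11, 17, 24, 38 and 59. All BDS values lay within the control range. The log2 fold change was -0.16 ± 0.20 (SE; edgeR adjusted p = 0.592), with a 95% interval from -0.59 to 0.26 on the log2 scale, or 0.665-fold to 1.20-fold. Without control 1, the highest pup, it was -0.01. Adjusted p-values of edgeR were above 0.05 for every one of the 283 tested genes (0% called), while 28.3% had an unadjusted p under 0.05, 19.4% higher and 8.83% lower in BDS. Calls moved with the scaling and the pups: these 55 higher and 25 lower genes were 36 and 39 with TMM scaling, 33 and 40 with median-of-ratios, 25 and 49 without Sdha and 76 and 12 without Polr1b. DESeq2 put 25 genes under an adjusted p of 0.05, and edgeR 47 without control 40 and 19 without BDS 11, none of them a class II member.

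The loading genes H2-DMa and H2-Ob were detected in every pup. H2-DMa, the alpha chain of the peptide exchanger, stood at 131, 98.2, 98.4, 168 and 163 normalized counts in control pups 1, 18, 40, 52 and 69. Its BDS values were 138, 135, 122, 116 and 137 in pups 11, 17, 24, 38 and 59. They lay closer together than the controls and within their range. Means were 132 ± 33.7 in control and 130 ± 9.93 in BDS lanes (SD, n = 5 each). The log2 fold change was 0.00 ± 0.22 (SE; edgeR adjusted p = 0.994), with a 95% interval from -0.47 to 0.48. A value this close to 0 has no settled sign: it was -0.11 with TMM scaling and -0.19 with Sdha left out of the housekeeping genes. On the other side, it was 0.14 with all 14 housekeeping genes and 0.32 with lane depth as a covariate. The beta chain partner gene on the panel, H2-DMb2, named after its values were seen, gave 6 to 22 raw counts and exceeded the limit in 1 lane.

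H2-Ob, the beta chain gene of H2-DO, is best known from B cells and some dendritic cells. It stood at 137, 163, 166, 184 and 160 normalized counts in control pups 1, 18, 40, 52 and 69, and at 174, 71.7, 117, 138 and 170 in BDS pups 11, 17, 24, 38 and 59. BDS 17 was the lowest of the 10 lanes, and the groups overlapped. Means were 162 ± 16.5 in control and 134 ± 42.2 in BDS lanes (SD, n = 5 each). The log2 fold change was -0.27 ± 0.25 (SE; edgeR adjusted p = 0.487), with a 95% interval from -0.80 to 0.26. Without BDS 17 it was -0.11, and with lane depth as a covariate -0.13.

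A ratio of raw counts within a lane needs no housekeeping gene. H2-DMa counts per H2-Ob count were 0.955, 0.602, 0.593, 0.917 and 1.02 in control pups 1, 18, 40, 52 and 69. In BDS pups 11, 17, 24, 38 and 59 they were 0.792, 1.88, 1.04, 0.842 and 0.804. BDS 17 stood above the 9 other pups. H2-DMa counts per H2-Ab1 count averaged 0.316 ± 0.120 among controls and 0.332 ± 0.0323 under BDS (SD, n = 5 each). Control 52 was the highest there at 0.508, with 33 raw counts of H2-DMa and 65 of H2-Ab1.

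**Figure D2:**
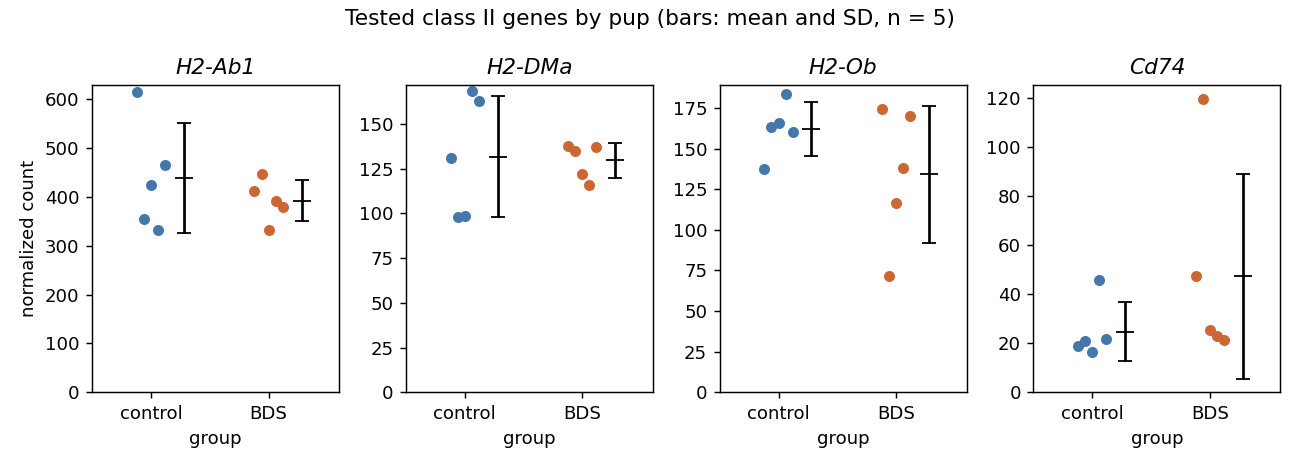
Normalized counts of the 4 tested class II genes, with 1 point per pup and bars for the mean and SD of each group (n = 5), on axes that start at 0. The groups overlap for all 4 genes; BDS 17 is the high point of Cd74 (119) and the low point of H2-Ob (71.7).

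Cd74, the invariant chain that escorts class II chains and also serves as a surface receptor, had the largest log2 fold change of the 4 tested members in the edgeR fit. Its raw counts were 15, 23, 30, 9 and 8 in control pups 1, 18, 40, 52 and 69, of which control 40 alone exceeded the limit. In BDS pups 11, 17, 24, 38 and 59 they were 39, 260, 44, 44 and 30, all above the limit. Of the 545 endogenous genes, 4 (0.734%) were detected in all BDS lanes and at most 1 control lane, and 0 showed the opposite pattern. The pattern counted is that of Cd74 itself, so its small share is not separate support for a difference. BDS lanes were deeper on average, so detection was easier there, and the part of depth in this count was not tested.

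On the scale of normalized counts Cd74 stood at 18.7, 20.7, 16.3, 45.9 and 21.7 in control pups 1, 18, 40, 52 and 69. It stood at 47.2, 119, 25.4, 22.8 and 21.3 in BDS pups 11, 17, 24, 38 and 59. BDS 17 was 2.53 times the next highest lane, the value of control 52 came from 9 raw counts under the limit, and the groups overlapped. Means were 24.7 ± 12.04 in control and 47.2 ± 41.7 in BDS lanes (SD, n = 5 each). edgeR put the log2 fold change at 1.098 ± 0.51 (SE; edgeR adjusted p = 0.169), with a 95% interval from 0.01 to 2.18 on the log2 scale. Cd74 entered the test through its 5 BDS lanes, so its place among the tested genes is not separate support for a difference. Without BDS 17 the log2 fold change was 0.37 (edgeR adjusted p = 0.555). After the mean of the negative controls was subtracted from each lane it was 2.19 (edgeR adjusted p = 0.0769), and with lane depth as a covariate 1.26 (edgeR adjusted p = 0.372). Limma gave 0.67 (adjusted p = 0.318) with a pseudocount of 1 and 0.45 (adjusted p = 0.332) with a pseudocount of 20. On the authors' scores it gave 0.51 (adjusted p = 0.471). Relative to H2-Ab1 in the same lane, Cd74 gave 0.267 counts per H2-Ab1 count in BDS 17 and between 0.0305 and 0.138 in the 9 other lanes.

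Ciita, the transactivator gene, lay at background in 8 lanes. It gave 8 to 20 raw counts in control lanes, all under the limit. In BDS pups 11, 17, 24, 38 and 59 it gave 9, 47, 25, 23 and 18. BDS 17 (47 against a limit of 16.7) and BDS 38 (23 against 22.3) exceeded their limits. BDS 17 thus held the highest raw count of Ciita, H2-Eb1, H2-Aa, Cd74, H2-Ab1 and H2-DMa, but not of H2-Ob, which was highest in control 40. It was also the deepest lane, with a limit among the lowest of the 10. Divided by the housekeeping level, Ciita stood at 21.6 in BDS 17, near control 69 at 21.7 and under control 52 at 45.9, and both control values came from raw counts of 8 and 9.

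Over the 4 tested members, 2 were higher and 2 lower in BDS, with a median log2 fold change of -0.08 against 0.09 over all 283 genes, of which 44.2% were lower. At an unadjusted edgeR p under 0.05 stood 1 member, Cd74, where 28.3% of all tested genes did. No member had groups without overlap, against 4.59% of the tested genes. Together the 7 members took 0.190% ± 0.0293 of all endogenous counts among controls and 0.168% ± 0.0211 under BDS (SD, n = 5 each). Control shares ran from 0.160% to 0.224% and BDS shares from 0.148% to 0.196%, so they overlapped. With the mean of the negative controls subtracted the shares averaged 0.163% and 0.158%, and that of control 52 went from 0.218% to 0.140%. Across the 10 pups the tested members did not follow one another closely. Pearson's r of their log2 normalized counts lay between -0.61 for H2-Ob with Cd74 and 0.41 for H2-DMa with Cd74, and was 0.09 for H2-Ab1 with H2-DMa. Spearman's rho of H2-Ob with Cd74 was -0.07, and BDS 17 was the lowest lane of the one and the highest of the other. All members of a lane share its scale factor.

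The genes most like Cd74 over the 10 pups were found among the 279 other tested genes by Pearson's r of log2 normalized counts. They were B2m, the light chain of MHC class I (r = 0.83), H2-K1, a class I heavy chain (r = 0.80), and Ifit2, an interferon-induced gene (r = 0.79). Ptk2, a focal adhesion kinase gene (r = 0.75), and Bst2, which encodes tetherin (r = 0.73), followed. None passed adjustment over the 279 genes: the permutation p of r was 0.00618 for B2m, 0.0546 for H2-K1, 0.00626 for Ifit2, 0.0109 for Ptk2 and 0.0245 for Bst2. The adjusted permutation p was 0.671 for H2-K1 and 0.539 for the 4 others. Spearman's rho was 0.72, 0.38, 0.67, 0.72 and 0.87 in the same order, with permutation p = 0.0236, 0.279, 0.0389, 0.0236 and 0.00233, and adjusted permutation p from 0.325 for Bst2 to 0.658 for H2-K1. Without BDS 17 and BDS 11, the pups farthest from the median of Cd74, r was 0.82 for B2m, 0.77 for Ifit2, 0.90 for Ptk2 and 0.96 for Bst2 (n = 8). For H2-K1 it was 0.36, so that relation was weaker without those pups. Control 52, where Cd74 had 9 raw counts under the limit, remained among these 8 as a high value. With it left out as well, r was 0.54 for B2m, 0.40 for Ifit2, 0.84 for Ptk2 and 0.79 for Bst2 (n = 7), so the relations of B2m and Ifit2 were weaker without these 3 pups. Ifit2 and Ptk2 were themselves under the limit in control 52, at 9 and 14 raw counts. Ifit2 was also under it in control 1 (20.0 normalized counts against 32.4) and control 69 (13.6 against 37.8), and Ptk2 in control 1 (23.7). Cd74 was under the limit in control 1, 18 and 69, which stayed among these 7 pups. The values of r over 7 pups therefore compare background in part. With BDS 17 alone left out, r was 0.62 for B2m, 0.87 for Bst2 and -0.05 for H2-K1, so the relation of H2-K1 rests on BDS 17. Within 1 group, 5 pups are too few for a correlation.

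H2-K1 and Cd74 were the 2 of 283 tested genes that stood at least 2 times higher in BDS 17 than in any other lane. H2-K1 was at 3164 normalized counts there and between 811 and 1027 in the 9 other lanes. B2m was at 6371 in BDS 17, where the others lay between 2442 and 4942. H2-Ab1, with 448 in BDS 17, lay within the range of the other lanes.

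**Figure D3:**
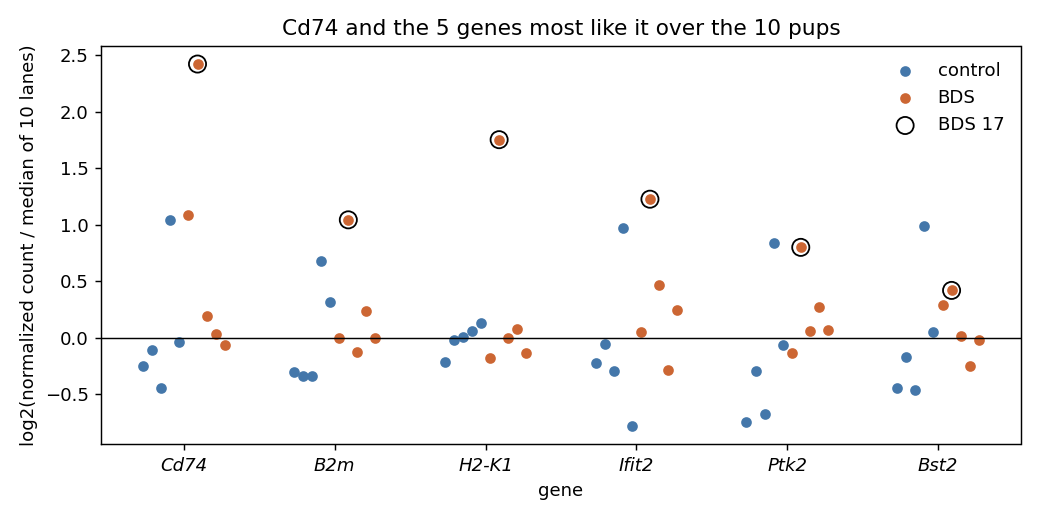
Cd74 and the 5 tested genes with the highest Pearson's r with it, as log2 of the normalized count over the median of the 10 lanes, with 1 point per pup and a ring around BDS 17. BDS 17 is the highest point of Cd74, B2m, H2-K1 and Ifit2, and it is not the highest for Ptk2 and Bst2.

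For the other members, the closest genes were Ikzf2 (r = 0.84) and Il1rap (r = 0.83) for H2-DMa, Cd34 (r = 0.76) and Mbp (r = 0.71) for H2-Ob, and Pecam1 (r = 0.71) and App (r = 0.69) for H2-Ab1, each over 10 pups. The permutation p was 0.00088 for Ikzf2, 0.00329 for Il1rap, 0.0192 for Cd34, 0.0249 for Mbp, 0.0232 for Pecam1 and 0.0438 for App. The smallest adjusted permutation p among them was 0.122, for Ikzf2. Spearman's rho was 0.89 and 0.87 for the genes of H2-DMa, 0.28 and 0.50 for those of H2-Ob, and 0.42 and 0.38 for those of H2-Ab1 (permutation p = 0.00116, 0.00209, 0.425, 0.142, 0.231 and 0.278). Without the 2 pups farthest from each member's median, r was 0.89 and 0.86 for the genes of H2-DMa. Ikzf2 and Il1rap were under the limit in control 52, the highest lane of H2-DMa, at 18 and 11 raw counts, and without that lane too r was 0.87 and 0.85 (n = 7). It was 0.02 and 0.24 for those of H2-Ob and 0.07 and -0.02 for those of H2-Ab1, so these relations rest on 2 pups each.

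The wider class II pathway was read from a list of processing genes, regulators, T cell receptors of class II, co-stimulators and CD74 partners. Beside the members, 35 of its 47 genes were on the panel and 25 were tested. Of these, 0 passed an adjusted p of 0.05. At an unadjusted edgeR p under 0.05 stood 8 higher and 2 lower, where 19.4% and 8.83% of all tested genes did, and the median log2 fold change was 0.34 against 0.09 over all tested genes. Lane depth moves with the groups here as well, and its part was not tested for the list.

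Among processing genes, Ctss, the gene of cathepsin S, averaged 28404 ± 4262 normalized counts under BDS and 20428 ± 4826 among controls (SD, n = 5 each), which gave 0.48 ± 0.18 on the log2 scale (SE; edgeR adjusted p = 0.132), or 0.25 with lane depth as a covariate. Of 18 tested regulators of class II transcription, 11 were higher and 7 lower, where 158 of all 283 tested genes were higher and 125 lower. The interferon-gamma receptor chain gene Ifngr1 was at -0.26 ± 0.19 (edgeR adjusted p = 0.362). Irf1, an activator of Ciita, was at 0.41 ± 0.19 (edgeR adjusted p = 0.174), or 0.25 without BDS 17. Irf8 was at 0.50 ± 0.27 (edgeR adjusted p = 0.219), or 0.34 without BDS 17 and 0.67 with lane depth as a covariate. Il10rb, a chain of the receptor for the class II suppressor interleukin-10, was at 0.81 ± 0.26 (edgeR adjusted p = 0.0964), or 0.37 with lane depth. Il10rb passed without control 40 (edgeR adjusted p = 0.0239) and with DESeq2 (adjusted p = 0.0390). The other chain gene of that receptor, Il10ra, was lower in BDS, at -0.29 ± 0.15 (edgeR adjusted p = 0.217). Ifng itself gave 2 to 18 raw counts and exceeded the limit in 1 lane.

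Co-stimulatory ligands act beside class II on T cells, and 3 of the 5 tested ones were higher in BDS lanes at an unadjusted p under 0.05, where 19.4% of all tested genes were. Cd80, at 0.08, lay just under the median of all tested genes, 0.09. Cd86 was at 1910 ± 708 normalized counts against 1038 ± 246 (SD, n = 5 each). On the log2 scale the difference was 0.88 ± 0.26 (SE; edgeR adjusted p = 0.0791), and 0.69 without BDS 17. Its adjusted p ran from 0.0213 with DESeq2 to 0.369 with lane depth as a covariate. Of the surface partners of CD74, its ligand gene Mif averaged 387 ± 69.5 under BDS and 515 ± 82.2 among controls (SD, n = 5 each), or -0.41 ± 0.19 on the log2 scale (SE; edgeR adjusted p = 0.175), and -0.19 with lane depth as a covariate. The co-receptor gene Cd44 gave 3 to 11 raw counts and exceeded the limit in 0 of 10 lanes. For contrast, of 7 tested class I presentation genes 6 were higher and 1 lower, with a median of 0.24. Of all 283 tested genes, 158 were higher and 125 lower, with a median of 0.09. The class I genes did not move together. Psmb7 was at 0.89 ± 0.23 (SE; edgeR adjusted p = 0.0642), while Tapbp and Psmb9 were at 0.01 and 0.00. Tap1 was the lower gene, at -1.80 ± 0.59 (SE; edgeR adjusted p = 0.101). It gave 10 to 29 raw counts and exceeded the limit in 4 lanes.

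Other cells that express class II could be present in a sort, so their markers were set beside these results. Of 9 B cell markers on the panel 3 were tested: Cd79b, Blnk and Pou2f2. The defining markers Ms4a1, Pax5 and Cd22 exceeded the limit in 0 of 10 lanes. Cd79a exceeded it in 2, with at most 33 raw counts. Pou2f2 was highest in BDS 17, at 627 normalized counts against 189 to 464 in the 9 other lanes, and its log2 fold change was 0.42 ± 0.27 (SE; edgeR adjusted p = 0.283). Blnk was at 0.40 ± 0.20 (edgeR adjusted p = 0.198) and Cd79b at -0.14 ± 0.22 (edgeR adjusted p = 0.676). The summed B cell list, most of it Blnk, ran from 1166 to 1847 normalized counts among controls and from 1702 to 2300 under BDS, with 2015 in BDS 17. Of 7 dendritic cell markers 2 were tested, Batf3 and Irf4, while Itgax exceeded the limit in 3 lanes and Ccr7 in 0. Their sum ran from 131 to 428 in control lanes and from 136 to 182 in BDS lanes, with 170 in BDS 17.

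Of 8 markers of border macrophages and monocytes Ccr2 and Cd14 were tested, and Cd163, Marco and Msr1 exceeded the limit in 0 lanes. Ccr2 averaged 113 ± 19.1 under BDS and 75.1 ± 15.4 among controls (SD, n = 5 each), or 0.59 ± 0.23 on the log2 scale (edgeR adjusted p = 0.137, unadjusted 0.0232), and Cd14 was at 0.29 ± 0.22 (edgeR adjusted p = 0.393). The summed list, most of it Cd14, ran from 1698 to 3196 in control and from 1941 to 3456 in BDS lanes, where BDS 17 was the lowest BDS lane. None of 12 T cell markers was tested, with sums of 94.0 to 418 in control and 72.3 to 114 in BDS lanes. Of 5 neutrophil markers Csf3r alone was tested, at -0.77 ± 0.24 on the log2 scale (SE; edgeR adjusted p = 0.0890). The list, most of it Csf3r, summed to 1525 to 3453 in control and 1067 to 1744 in BDS lanes. S100a8 and S100a9 exceeded the limit in 1 lane each, Cxcr2 in 3 and Camp in 0. All 3 vessel markers were tested, with sums of 714 to 1674 in control and 980.1 to 1070.5 in BDS lanes. They differed in sign: Cdh5 was at 0.97 ± 0.37 on the log2 scale (edgeR adjusted p = 0.128, unadjusted 0.0181), Pecam1 at -0.56 ± 0.24 (edgeR adjusted p = 0.156, unadjusted 0.0347) and Cd34 at -0.42 ± 0.24 (edgeR adjusted p = 0.258). BDS 17 held 279 normalized counts of Cdh5, 1.73 times the next lane. The highest dendritic and T cell sums were those of control 52, where division by its low scale factor enlarges background, so these sums have no order between lanes. The B cell, monocyte and neutrophil sums were each mostly 1 gene, so they do not measure how many such cells were present. The part of other cells in the class II values was not tested.

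The direction of the members was then compared over processing choices. Cd74 was higher in BDS under all 28 alternatives that gave it a value. H2-Ab1 and H2-Ob were lower in 28 of 29 each, the exception being scaling to positive controls alone, at 1.07 and 0.80, which moved the median of all tested genes to 1.35. H2-DMa was above 0 in 19 of 29 and below 0 in 10. Cd74 alone reached an adjusted p under 0.05, and only with positive controls alone (log2 fold change 2.72, edgeR adjusted p = 0.00673). With that scaling 128 genes were higher and 0 lower at an unadjusted edgeR p under 0.05. It therefore cannot set a difference in Cd74 apart from one in lane depth.

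**Figure D4:**
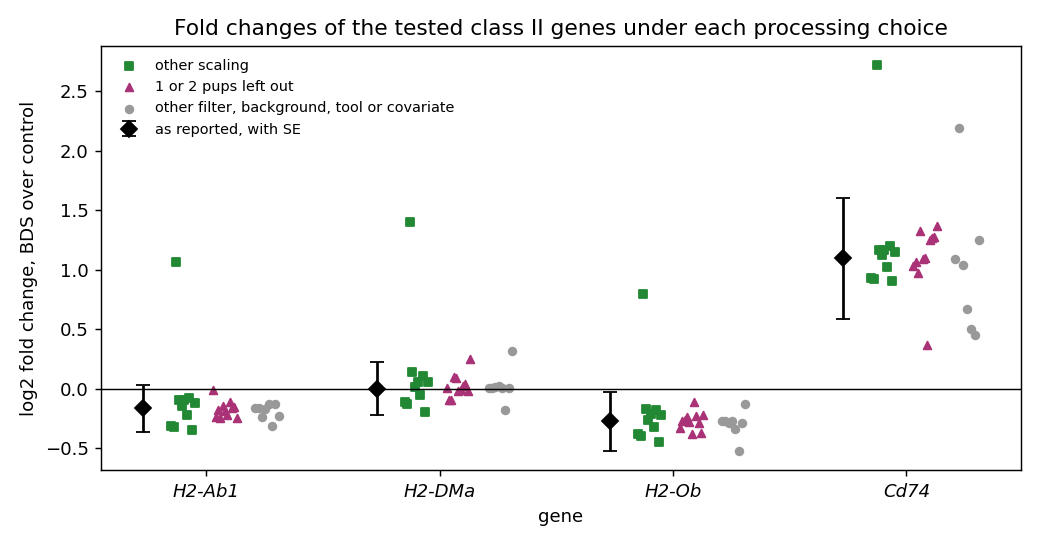
Log2 fold changes (BDS over control) of the 4 tested class II genes as reported, with the SE, and under each alternative: other scalings, 1 or 2 pups left out, and other filters, background, tools or covariates. H2-DMa straddles 0, H2-Ab1 and H2-Ob lie below 0 except for 1 scaling each, and the lowest value of Cd74 is the one without BDS 17 (0.37).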

How the data were processed

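RNA of 10 lanes (2 ng each, amplified by 5 rounds of PCR, per the labels' protocols) was read on the panel. The deposited raw table holds counts of barcodes per probe, not normalized; for the counting software, "not given in the sources used here" applies. A further table, deposited by the authors, holds normalized scores rounded to whole numbers; the series' design text speaks of scaling to positive controls and 5 housekeeping genes but names 6. That table also lists the percent of samples above background, a fold change (a ratio of group means, per the file headers) and a p-value deposited by the authors, with no adjustment stated.

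Scale factors here are each lane's geometric mean of the 6 (Tbp, Sdha, Polr1b, Oaz1, Gapdh, Alas1), divided by their geometric mean over lanes. Genes detected in 40% of lanes or more, against the mean plus 2 SD of negative controls, 283 in all, were fitted on raw counts with edgeR 4.0.16 in R 4.3.3 (quasi-likelihood F test, two-sided, no covariate, Benjamini-Hochberg over 283 genes). The SE was derived from the F statistic, and intervals use its t distribution. Log2 values for correlations add a pseudocount of 1; permutation p-values used 100000 resamples. Limma 3.58.1 and DESeq2 1.42.0 served as alternatives, and the fit was tested on simulated data. Pups are single lanes, so p-values measure the spread between pups. Counts follow amplification without molecular identifiers and are not independent molecules.

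Members, lists and tests were chosen with earlier results of these data known. The text names all members, 9 listed pathway genes with the 3 of smallest p, and the 5 (Cd74) or 2 genes of highest r with each tested member. Of these and of the markers, 2 genes are not reported here. H2-DMb2, Ifng, Il10ra, the single markers and the class I genes Psmb7, Tapbp, Psmb9 and Tap1 were named after their values were seen. Other scalings, filters, background subtraction, tools, a covariate for lane depth and leaving out each pup were tried; the fit without control 52 and 69 and the correlations without control 52 were added after seeing the data.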

Additional observations from a re-analysis of the deposited data

Results flagged for a closer look

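Within the 5 control lanes, Cd74 stood far from the others in control 52, at 45.9 normalized counts where the other 4 lay between 16.3 and 21.7; its raw count there was 9, under the limit of 24.4. Within the 5 BDS lanes, Cd74 stood far from the others in BDS 17, at 119 normalized counts where the other 4 lay between 21.3 and 47.2; its raw count there was 260. The H2-DMa count per H2-Ob count also set BDS 17 apart, at 1.88 where the other 4 BDS lanes lay between 0.792 and 1.04. Each of the 3 has a gap to the nearest lane of more than 0.71 of the group's range, which chance gives in about 1 of 20 groups. All 7 members, the class II share and the ratios of H2-Ob to H2-Ab1, H2-DMa to H2-Ab1 and H2-DMa to H2-Ob were screened. Both groups were screened for each and only those past the rule are given, so some would pass by chance.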

How the results depend on the processing

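No paired analysis was possible because the labels match no control pup with a BDS pup, and no litter gave more than 1 pup. The log2 fold change of H2-DMa turned negative with TMM (-0.11), median-of-ratios factors (-0.12), Oaz1 left out (-0.050) and Sdha left out (-0.19). It was also negative with the authors' scores, fitted with limma (-0.17). With each pup left out it ran from -0.090 to 0.10, and with lane depth as a covariate it was 0.32. Positive controls alone turned H2-Ab1 (1.07), H2-Ob (0.80), Ifngr1 (0.84) and Mif (0.86) and put 14 genes under an adjusted p of 0.05 and 128 under an unadjusted one. At an adjusted p of 0.05 the count of 0 genes became 12 without Gapdh, 15 without Polr1b and 25 by DESeq2, and ran from 0 to 47 with each pup left out (47 without control 40, 19 without BDS 11). At an unadjusted p under 0.05 the 80 genes became 139 with no filter and 36 with lane depth, and ran from 44 (without BDS 17) to 104 with each pup left out. Higher and lower calls were 55 and 25 as reported, 36 and 39 with TMM and 25 and 49 without Sdha. The count of tested members was 4 in each leave-one-out setting and 3 at 80% of lanes, where Cd74 was not tested. Shares of class II counts moved by less than 1 SD. The causes were not tested. For H2-Aa, H2-Eb1 and Ciita, under the limit in most lanes, a difference was not detectable at this depth.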
